A study of Mus musculus with 3 samples.

Results

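The genes described here encode proteins of the extracellular matrix, the integrins that bind it and the proteases that cut it. They were chosen by symbol: collagens, laminins, integrin alpha and beta chains, thrombospondins, matrix metalloproteinases (MMPs), ADAMTS proteases, ADAMTS-like proteins and tissue inhibitors of metalloproteinases (TIMPs). Of 15311 genes in the deposited table, 114 fitted these symbols and 104 remained after the main fibrillar collagens, the main basement membrane chains and Timp1 were set aside. The rule used no measured value. It also took in 4 genes that carry such a symbol but encode no matrix protein or integrin (Col4a3bp, Itgb1bp1, Itgb1bp2 and Itgb3bp), and these are given apart below.

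Oligo(dT)-selected RNA from embryonic stem (ES) cells of the mouse was sequenced in 3 libraries. The K3R3 cells (1 library, no replicate) carried the histone variant H2A.Z fused to YFP, with 3 C-terminal lysines replaced by arginine, and the WT cells (2 libraries) carried the wild-type fusion. Both lines were made in KH2 ES cells by lentivirus, with the transgene under a CMV promoter and rtTA control. Both were induced with 1 µg/ml doxycycline and sorted for YFP, and both carried a blasticidin-selected hairpin against the 3′ UTR of endogenous H2A.Z. The labels give the strain as V6.5 (129SvJaexC57BL/6). Both lines were kept on irradiated embryonic fibroblasts, which were left out for the final passage. By its title, the series asks how mono-ubiquitylation of H2A.Z.1 bears on poised chromatin. Whether the WT libraries are of separate cultures is not stated, so each p-value reflects the spread of these samples alone, and that spread may be technical.

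The extracellular matrix is a mesh of secreted proteins outside the cell. Collagens give it tensile strength, laminins build the sheets called basement membranes, and thrombospondins bridge matrix, growth factors and cells. Integrins are paired receptors, an alpha chain with a beta chain, that tie the matrix to the actin skeleton. MMPs and ADAMTS enzymes cleave matrix proteins, and TIMPs block them. In culture, mouse ES cells attach mainly through integrins that contain the beta1 chain. Many matrix genes of later tissues are held at a low level in these cells, at promoters marked by Polycomb and by an activating mark at once (the bivalent class).

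Promoter sequence is shown for the 5 members called higher in K3R3 and for 2 members set beside them, since the bivalent class is one of promoters. Itgb1 is the member of the active class with the highest level per length, and Col6a1 the member without a class with the highest level. Each line gives the 30 bases richest in the dinucleotide CG within the 250 bases before the gene's start, 5′ to 3′ on the strand of the gene, with every CG in capitals. The sequences are from RefSeq, build GRCm38.p6, and the deposited counts were made on mm9.
Col25a1: CGgtcCGCGcttcaggCGCGCGCGcactgt
Thbs4: cataaagCGCGggctgCGgcCGCGgagccc
Mmp25: CGgccacccCGccccCGgccCGCGgtcctg
Itga8: CGctagagggCGCGaagagCGCGcCGgccc
Col11a1: CGggcacacaggaggCGggaggagtgggCG
Itgb1: aggCGCGgctgaCGCGgCGCGgaggaatgc
Col6a1: CGatgctgatgctgtgactcactcagcttt

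These windows lie at chr3:130180808-130180837 (plus strand) for Col25a1, chr13:92794819-92794848 (minus) for Thbs4, chr17:23645282-23645311 (minus) for Mmp25 and chr2:12301992-12302021 (minus) for Itga8. They lie at chr3:114030496-114030525 (plus) for Col11a1, chr8:128685624-128685653 (plus) for Itgb1 and chr10:76726119-76726148 (minus) for Col6a1. In the whole window of 300 bases around the start (250 before and 50 after), CG occurred 23 times for Col25a1, 24 for Thbs4, 18 for Mmp25 and 23 for Itga8. It occurred 9 times for Col11a1 and 27 times for Itgb1 and 3 times for Col6a1. CG occurred at least 10 times in 43.9% of 27025 promoters in the RefSeq table, and in 78.7% of the 11947 promoters matched to a gene of the expression table. A promoter entry was matched for 74 of the 104 members, and with 30 unmatched a comparison of CG content between classes is void.

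Total counts were 24718223 in K3R3 and 21614693 and 25426228 in WT. H2afz, the target of the hairpin, stood at 222 CPM (TMM-normalised counts scaled to library size) in K3R3 and 219 and 232 CPM in WT. Transgene and endogenous reads share this gene and both lines carried the hairpin, so the level does not check the labels. Of 10 ES cell markers, 0 were called higher and 4 lower, with a median log2 change of -0.36, and their summed level was 4539 CPM in K3R3 against 6900 and 5987 CPM in WT. Over all tested genes, 2.02% were called higher and 0.542% lower. Most of the ES cell markers stood at a mean of 100 CPM or more. In that range the median of all genes was -0.13, and 33 of 2544 were called lower and 3 higher. Of 10 markers of primitive and parietal endoderm, 0 were called higher and 2 lower (median -0.68; sum 205 CPM in K3R3, 333 and 295 CPM in WT). Cubn carried much of the difference in that sum (18.2 CPM in K3R3, 88.3 and 73.6 in WT). Of 7 endothelial markers 6 had a row and 0 were called (sum 54.8 CPM in K3R3, 85.4 and 71.1 in WT). Pecam1 carried most of that sum (41.4 CPM in K3R3, 71.8 and 60.02 in WT), while the median of the markers was 0.42 and K3R3 lay above both WT libraries for 3 of the 5 tested. Of 7 neural markers 6 had a row and 0 were called (sum 97.8 CPM in K3R3, 65.1 and 81.2 in WT). Nes carried most of that sum (65.0 CPM in K3R3, 38.6 and 42.8 in WT). The median of the neural markers was -0.0004, and K3R3 lay above both WT libraries for 1 of the 4 tested. Of 8 mesoderm markers 6 had a row and 1 was called higher (median 0.48; sum 15.8 CPM in K3R3, 13.3 and 9.47 in WT).

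The members were unequal in level, and integrin chains led. Per length, on the deposited RPKM scale (reads scaled to gene length and library size), Itgb1, which encodes the beta1 chain shared by most matrix-binding integrins, stood at 94.0 in K3R3 and 94.7 and 90.3 in WT. Itga6, the alpha6 chain that pairs with it to bind laminin, followed at 41.2 RPKM in K3R3 and 44.2 and 43.0 RPKM in WT. Each other member that encodes a matrix protein or integrin stood at 12.0 RPKM or less in each library. Together these 2 genes held 43.8% of all member counts in K3R3 and 51.6% and 51.5% in WT. The 104 members summed to 1834 CPM in K3R3 and 1754 and 1663 CPM in WT.

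Below these chains the levels ran close together. Thbs1, a thrombospondin that can activate latent TGF-beta, stood at 12.0 RPKM in K3R3 and 7.42 and 8.17 RPKM in WT. Timp2, an inhibitor of MMPs that also takes part in activating Mmp2, stood at 11.9 RPKM in K3R3 and 10.4 and 8.65 in WT. Itga5, the alpha chain of the main fibronectin receptor, stood at 9.09 RPKM in K3R3 and 7.79 and 9.26 in WT. In K3R3 the order of Thbs1 and Timp2 could not be told from their values, and in WT the range of Itga5 overlapped that of Timp2 and that of Thbs1.

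Among 98 members that could be tested, 5 were called higher in K3R3 and 0 lower (edgeR's quasi-likelihood test, Benjamini-Hochberg adjustment over all 13829 tested genes at 0.05). Over all tested genes, 2.02% were called higher and 0.542% lower. The 5 were Col25a1, Thbs4, Mmp25, Itga8 and Col11a1, from 4 families. At a mean of 0.5 to 2 CPM over the 3 libraries, 2 of 43 members were called higher, beside 2.87% of all genes. At 2 to 10 CPM it was 3 of 32 members, beside 4.73%. In the lower range, 4 of the 43 members reached the minimum mean of 0.5 CPM only through K3R3, among them the 2 called. The same held for 353 of all 2157 genes of that range, and it fixes part of their difference. At an unadjusted p under 0.05, 24 members were higher and 1 was lower, against 7.9% and 3.33% of all tested genes. At 0.5 to 2 CPM, 14 of 43 members and 347 of 2157 of all genes were higher at this cut. At 2 to 10 CPM it was 6 of 32 members and 459 of 3151 of all genes. DESeq2 called 0 members, and it called 0.239% of all tested genes higher and 0.188% lower. At an unadjusted p under 0.05 it had 9 members higher and 0 lower, against 3.72% and 2.12% of all tested genes. The calls rest on a K3R3 library without a replicate, which is assumed to vary like WT, and on a dispersion trend over all genes. In bulk RNA, fewer cells of a type and less RNA per cell cannot be told apart.

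**Figure D1:**
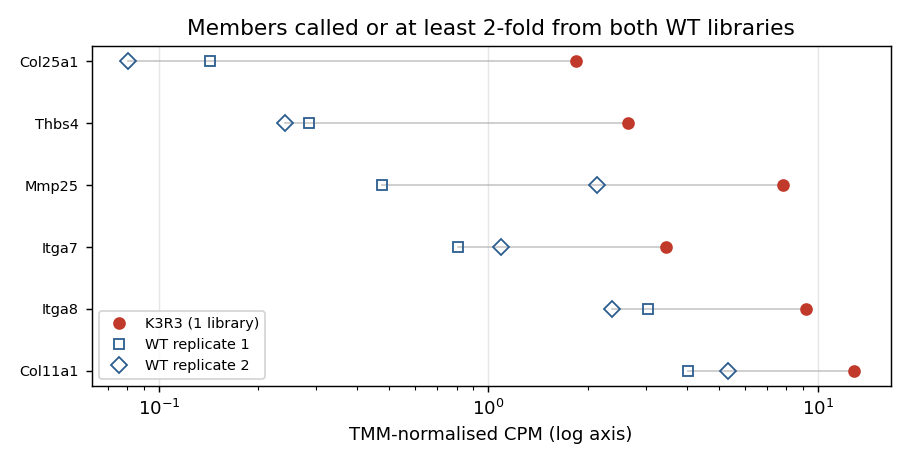
TMM-normalised CPM (log axis) of the 6 members that were called or lay at least 2-fold from both WT libraries, with K3R3 as a filled circle and the WT replicates as an open square and diamond. In all 6 the K3R3 point lies to the right of both WT points, and Mmp25 has the widest gap in log units between its WT points.

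Col25a1 encodes a transmembrane collagen known from neurons and from the innervation of muscle in mice. It had 48 counts in K3R3 and 3 and 2 counts in WT, or 1.84 CPM in K3R3 against 0.143 and 0.0806 CPM in WT. The ratio of K3R3 to pooled WT was 16.9, with an exact 95% interval of 6.76 to 54.4 that covers counting error only. The fitted log2 change was 4.01 (SE 0.97; adjusted p = 0.00384 by edgeR). Col25a1 was close to silent in WT and passed the filter on low counts only through its K3R3 value.

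Thbs4 encodes a pentameric thrombospondin of tendon and muscle. It had 69 counts in K3R3 and 6 in each WT library, or 2.65 CPM in K3R3 against 0.285 and 0.242 CPM in WT. Its log2 change was 3.31 (SE 0.80; adjusted p = 0.00361 by edgeR). It too passed the filter only through K3R3, as did 4 members in all.

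Mmp25 encodes a membrane-anchored MMP known from leukocytes. It stood at 7.84 CPM in K3R3 and at 0.476 and 2.14 CPM in WT. Its log2 change was 2.56 (SE 0.49; adjusted p = 6.13e-05 by edgeR). K3R3 lay above both WT libraries, as it did for 72.6% of all bivalent genes, the class of Mmp25. The WT replicates lay far apart, and the difference of log2 CPM was 3.93 against WT replicate 1 and 1.86 against replicate 2.

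Itga8 encodes the alpha8 integrin chain, which pairs with beta1 and is needed for kidney development in mice. It stood at 9.18 CPM in K3R3 and at 3.04 and 2.38 CPM in WT. Its log2 change was 1.76 (SE 0.43; adjusted p = 0.0041 by edgeR). The WT values lay close together and well below K3R3.

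Col11a1 encodes a minor fibrillar collagen that sets fibril width in cartilage. It stood at 12.9 CPM in K3R3 and at 4.04 and 5.32 CPM in WT. Its log2 change was 1.46 (SE 0.38; adjusted p = 0.0104 by edgeR). Of the 5 called members it had the highest level in CPM in all 3 libraries, and it alone was of the active class.

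By size without a test, 5 of 82 members with a mean of at least 1 CPM lay at least 2-fold above both WT libraries after adding 1 CPM, and 0 lay as far below. Over all genes the shares were 2.1% above and 0.172% below. Among those with a mean under 2 CPM, 2 of 27 members and 68 of 1089 of all genes lay this far above. At 2 to 10 CPM it was 3 of 32 members and 167 of 3151 of all genes. The 5 members were Col11a1, Itga8, Thbs4, Mmp25 and Itga7. Itga7, the alpha7 chain of the laminin receptor of muscle, stood at 3.46 CPM in K3R3 and 0.809 and 1.09 CPM in WT, with a log2 change of 1.85 that was not called (SE 0.63; adjusted p = 0.0878 by edgeR). Col25a1 was below the minimum level of this rule. Taken against WT replicate 2 alone the count was 12, and against WT replicate 1 alone it was 15, and no share over all genes is given for these counts.

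Most members stood slightly above WT. In CPM, K3R3 lay above both WT libraries for 71 of the 104 members, below both for 9 and between them for 24. Over all genes the shares were 35.3% above and 33.2% below. For all genes at a mean of 0.5 to 2 CPM it lay above both in 59.5%, beside 35 of 43 members. At 2 to 10 CPM it did so in 52.6%, beside 19 of 32 members. At 10 to 100 CPM K3R3 did so in 25.9%, beside 15 of 21 members. On the RPKM scale, whose library totals differ, it lay above both for 78 members, below both for 7 and between for 19, against 49.1% above and 19.1% below over all genes. Itgb1 and Itga1 moved from below both to between with this change of scale. The median log2 change of the 98 tested members was 0.48 (interquartile range 0.20 to 1.07), against -0.01 over all tested genes. In the same ranges of level the member medians were 0.87, 0.49 and 0.35, beside 0.50, 0.20 and -0.04 over all genes. Without the filter on low counts, the median of all 104 members was 0.46. By plain differences of log2 CPM, the member median was 0.62 against WT replicate 1 and 0.59 against replicate 2, and between the WT replicates it was -0.04.

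**Figure D2:**
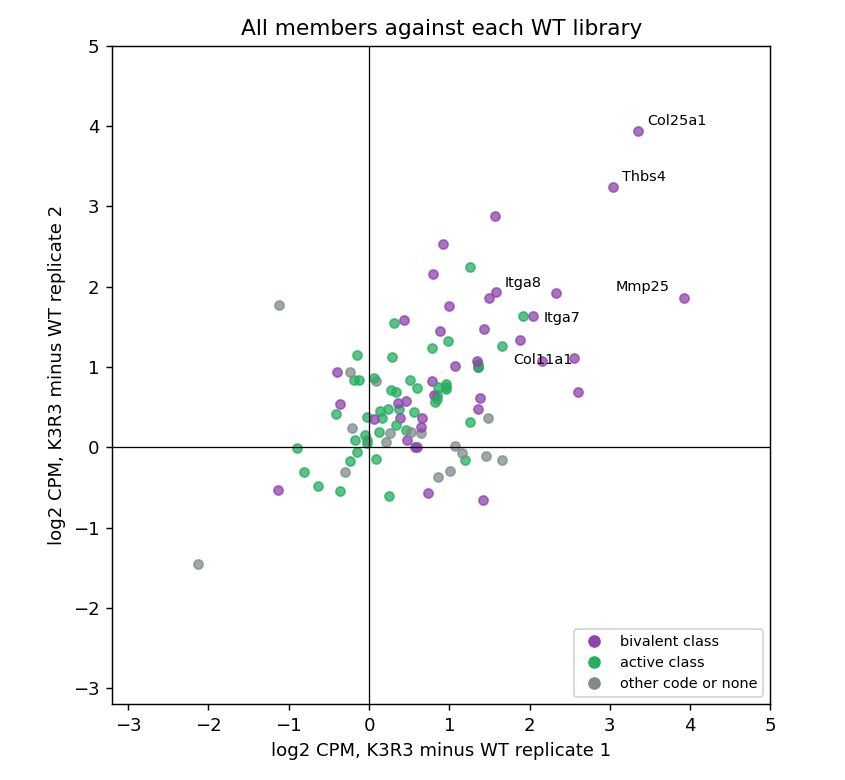
Difference of log2 CPM between K3R3 and WT replicate 1 (horizontal) and between K3R3 and WT replicate 2 (vertical) for all 104 members, coloured by promoter class, with lines at 0. Most points lie to the upper right of the origin, where K3R3 is above both WT libraries, and Col25a1, Thbs4 and Mmp25 lie farthest from the origin among the labelled genes.

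Collagens were mostly above WT at low levels. Of 33 collagen genes with a row, 30 were tested and 2 were called higher, Col25a1 and Col11a1. K3R3 lay above both WT libraries for 23 of the 33, between them for 10 and below both for 0. Their levels summed to 202 CPM in K3R3 and 164 and 138 CPM in WT, and the median log2 change was 0.73. The 30 tested had a median level of 1.65 CPM. Over all genes at 0.5 to 2 CPM, K3R3 lay above both WT libraries for 59.5%, and the median log2 change was 0.50. The 8 fibrillar collagens had a median of 1.03, and K3R3 lay above both WT libraries for 7 of them. Col5a1, a minor fibrillar chain that starts collagen fibrils, stood at 15.9 CPM in K3R3 and 11.6 and 10.7 CPM in WT (log2 change 0.52, not called). Col2a1, the main collagen of cartilage, stood at 3.11 CPM in K3R3 and 1.19 and 1.53 CPM in WT (1.19, not called).

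The collagens with the highest levels per length varied between the WT libraries. Col18a1, a basement membrane collagen whose end fragment is endostatin, stood at 7.5 RPKM in K3R3 and 9.05 and 5.20 RPKM in WT, so K3R3 lay between them. Col6a1, a chain of the beaded filaments around cells, stood at 5.06 RPKM in K3R3 and 1.65 and 3.64 RPKM in WT. Its log2 change was 0.81 (SE 0.31; adjusted p = 0.157 by edgeR), with the WT replicates more than 2-fold apart. Col8a1, a short-chain collagen of sheet-like networks, stood at 1.29 RPKM in K3R3 and 0.509 and 1.33 RPKM in WT.

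Of 6 laminin genes 0 were called, and the family median was 0.64. K3R3 lay above both WT libraries for 4 and between them for 2. The median level of the laminin genes was 6.48 CPM, and K3R3 lay above both for 52.6% of all genes at 2 to 10 CPM. Lama4, an alpha chain of vessel and muscle basement membranes, stood at 10.8 CPM in K3R3 and 4.19 and 5.20 CPM in WT (log2 change 1.19, SE 0.39; adjusted p = 0.0706 by edgeR). Lamb2, a beta chain of mature basement membranes, stood at 8.91 CPM in K3R3 and 4.57 and 5.28 CPM in WT (0.85, not called). Both genes lay above both WT libraries, and their WT values lay close together.

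Integrin chains had the smallest family medians apart from ADAMTS-like proteins. Of 12 alpha chains 11 were tested, Itga8 was called higher, and the median was 0.03. Of 6 beta chains 0 were called, and the median was 0.29. Summed levels were 380 CPM in K3R3 and 414 and 385 CPM in WT for alpha chains, and 602 CPM in K3R3 and 660 and 613 CPM in WT for beta chains. Both sums are dominated by Itga6 and Itgb1.

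In CPM, Itga6 stood at 245 in K3R3 and 288 and 277 in WT (log2 change -0.20), and Itgb1 at 558 in K3R3 and 617 and 580 in WT (-0.10). Neither was called. With library totals implied by RPKM, the log2 value of Itgb1 was 0.02 and that of Itga6 was -0.08. The collagen-binding chains Itga1, Itga2 and Itga10 stood below both WT libraries in CPM (log2 changes -0.52, -0.87 and -0.31, none called), and Itga1 lay between them in RPKM. Itga11, the other collagen-binding chain, was too low to test and lay between the WT libraries, at 0.423 CPM in K3R3 and 0.238 and 0.645 CPM in WT.

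Itga3, another laminin-binding chain, stood at 37.4 CPM in K3R3 and 35.9 and 20.5 CPM in WT (0.41, not called), so K3R3 lay near WT replicate 1. Itga5 lay between the WT libraries in CPM and RPKM. Among beta chains, Itgb5, which pairs with alphav to bind vitronectin, stood at 26.9 CPM in K3R3 and 24.5 and 19.6 CPM in WT (0.29, not called). Itgb7, known from lymphocytes that home to the gut, stood at 5.65 CPM in K3R3 and 9.89 and 7.01 CPM in WT (-0.58, not called).

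All 4 thrombospondin genes stood above both WT libraries, and only Thbs4 among them was called. Over all genes, the share above both was 59.5% at 0.5 to 2 CPM, 52.6% at 2 to 10 CPM and 25.9% at 10 to 100 CPM. Thbs1 stood at 98.6 CPM in K3R3 and 66.9 and 72.6 CPM in WT (log2 change 0.50, SE 0.22; adjusted p = 0.316 by edgeR). Thbs2, the other trimeric member, stood at 37.6 CPM in K3R3 and 24.1 and 31.7 CPM in WT (0.43, not called). Thbs3, pentameric like Thbs4, stood at 9.87 CPM in K3R3 and 6.52 and 5.88 CPM in WT (0.67, not called).

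**Figure D3:**
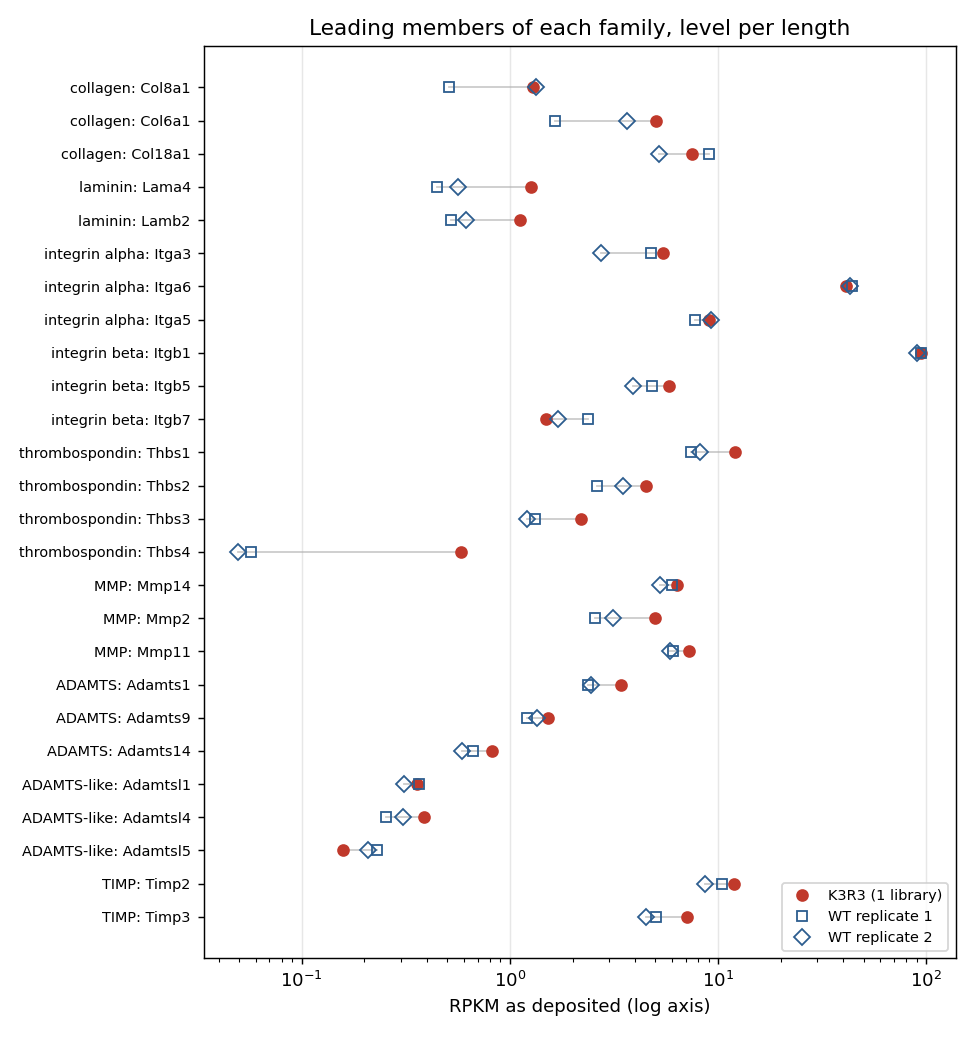
Deposited RPKM (log axis) of members with a high mean level in each family and of every thrombospondin and TIMP, with K3R3 as a filled circle and the WT replicates as an open square and diamond. Itgb1 and Itga6 stand far to the right with the 3 libraries close together, and the K3R3 point of Thbs4 lies far from its WT points.

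Of 17 MMP genes 15 were tested and Mmp25 was called higher. The family median was 0.49, and K3R3 lay above both WT libraries for 11 of the 17 and below both for 1, Mmp12, which was too low to test. The 15 tested had a median level of 3.48 CPM, and K3R3 lay above both for 52.6% of all genes at 2 to 10 CPM. Mmp2, a gelatinase that cuts basement membrane collagen, stood at 21.5 CPM in K3R3 and 12.2 and 14.5 CPM in WT (log2 change 0.69, SE 0.32; adjusted p = 0.366 by edgeR). Mmp9, the other gelatinase, stood at 3.42 CPM in K3R3 and 1.24 and 1.21 CPM in WT (1.48, not called). Both gelatinases lay above both WT libraries.

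Mmp14, the membrane-bound activator of Mmp2, stood at 23.4 CPM in K3R3 and 24.2 and 21.0 CPM in WT (0.05). Mmp11, a stromelysin found in remodelling tissue, stood at 23.1 CPM in K3R3 and 21.1 and 20.3 CPM in WT (0.16). Neither was called, and in CPM K3R3 lay between the WT libraries for Mmp14.

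Nearly every ADAMTS gene stood above WT, but 0 of 16 were called. At an unadjusted p under 0.05, 5 were higher and 0 lower, where 7.9% of all tested genes were higher. The median level of these 16 genes was 1.76 CPM. Of all genes at 0.5 to 2 CPM, 347 of 2157 were higher at this cut, and 59.5% lay above both WT libraries. K3R3 lay above both WT libraries for 15 of the 16, and Adamts12 lay between them. Their median was 0.77, and their levels summed to 77.4 CPM in K3R3 and 51.3 and 54.1 CPM in WT.

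Adamts1, which cleaves proteoglycans such as versican, led the ADAMTS genes per length, at 3.41 RPKM in K3R3 and 2.38 and 2.44 RPKM in WT (log2 change 0.37). Adamts9, another proteoglycan-cleaving enzyme, stood at 1.53 RPKM in K3R3 and 1.21 and 1.35 RPKM in WT (0.14). Adamts2, Adamts3 and Adamts14 remove the N-terminal propeptides of procollagens, and their log2 changes were 1.70, 1.71 and 0.26, none called. Of 4 ADAMTS-like genes, which resemble these enzymes but lack the protease domain, 0 were called and the median was 0.15. Their levels per length were below 0.4 RPKM in each library, with Adamtsl4 at 0.387 RPKM in K3R3 and 0.254 and 0.307 RPKM in WT. Adamtsl1 stood at 0.357 RPKM in K3R3 and 0.367 and 0.309 RPKM in WT, and Adamtsl5 at 0.158 RPKM in K3R3 and 0.229 and 0.208 RPKM in WT. Adamtsl3 differed most within this family, at 2.34 CPM in K3R3 and 0.761 and 0.282 CPM in WT (log2 change 2.18, SE 0.75; adjusted p = 0.0944 by edgeR). It was called with the library totals implied by RPKM, with the likelihood ratio test and with the bias-adjusted quasi-dispersion.

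Both TIMP genes stood above both WT libraries and neither was called. Over all genes at 10 to 100 CPM, their range of level, 25.9% stood above both. Timp2 stood at 61.1 CPM in K3R3 and 58.6 and 48.0 CPM in WT (log2 change 0.20). Timp3, which is bound to the matrix and also inhibits ADAMTS enzymes, stood at 47.2 CPM in K3R3 and 36.6 and 32.2 CPM in WT (0.46).

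The 4 genes that share only a symbol with these families were not called. Col4a3bp, which encodes a ceramide transfer protein, stood at 76.9 CPM in K3R3 and 99.0 and 112 CPM in WT (log2 change -0.45, the member at an unadjusted p under 0.05 in the lower direction). Itgb1bp1 and Itgb1bp2, which bind the beta1 tail, changed by 0.02 and 0.36, and Itgb3bp, a centromere protein, by 0.35. In CPM, K3R3 lay above both WT libraries for Itgb1bp2 and Itgb3bp and between them for Itgb1bp1. Without these 4 the count called was 5.

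By promoter class, 39 members were bivalent, 47 active, 1 had another code (Col5a2) and 17 had none. Of 36 bivalent members tested, 4 were called higher and 0 lower, against 10.5% called higher over all bivalent genes. Of 47 active members tested, 1 was called higher and 0 lower, against 0.838% over all active genes. K3R3 lay above both WT libraries in CPM for 34 of the 39 bivalent members, against 72.6% of all bivalent genes, and for 30 of the 47 active members, against 28.9% of all active genes. The median log2 change was 1.13 for tested bivalent members, beside 0.65 for all tested bivalent genes, and 0.41 for active members, beside -0.04 for all tested active genes. Without the filter on low counts the medians were 1.08 for bivalent members and 0.70 for all bivalent genes.

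The class medians differed by the level of the genes. At a mean of 0.5 to 2 CPM, the median was 1.43 for 20 bivalent members and 0.59 for 16 active members, beside 1.05 and 0.40 over all bivalent and all active genes of that range. In this range 3 of the 20 bivalent members, and 163 of all 614 bivalent genes, passed the filter on low counts only through K3R3, which fixes part of their difference. At 2 to 10 CPM it was 0.81 for 9 bivalent and 0.67 for 18 active members, beside 0.67 and 0.15. At 10 to 100 CPM it was 0.43 for 7 bivalent and 0.16 for 11 active members, beside 0.22 and -0.05. The members at 100 CPM or more, Itga6 and Itgb1, were both active. The number of members was small in each range. Over all tested members the difference between the bivalent and active medians was 0.72, and with a minimum mean of 2 CPM it was 0.13. By plain differences of log2 CPM against WT replicate 2 alone it was 0.44.

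**Figure D4:**
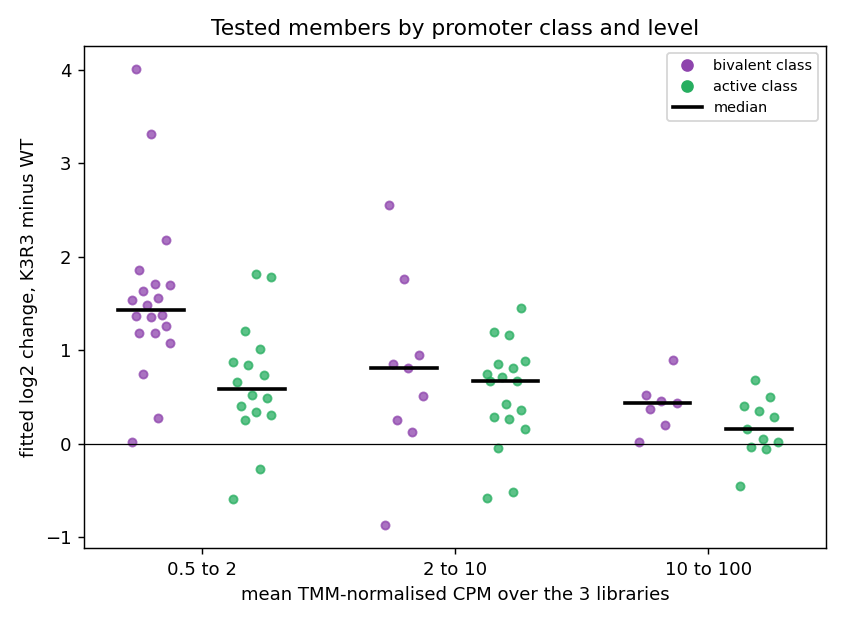
Fitted log2 change (K3R3 minus WT) of tested bivalent and active members by mean CPM over the 3 libraries, with a bar at each median. Bivalent members at 0.5 to 2 CPM have a median of 1.43 and those at 10 to 100 CPM one of 0.43, and the members at 100 CPM or more are not drawn.

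The WT libraries themselves differed for some members. Between the WT replicates, 8 of the 98 tested members (8.16%) lay at least 2-fold apart after adding 1 CPM, against 1.27% of all tested genes. Among them, Col8a1, Col6a1, Mmp25, Mmp3 and Mmp19 were higher in replicate 2, and Col12a1 and Col6a4 were lower there. K3R3 lay between the WT libraries for Col8a1, Mmp3, Mmp19, Col12a1 and Col6a4, and above both for Col6a1 and Mmp25. Mmp3, a stromelysin of connective tissue cells, stood at 9.72 CPM in K3R3 and 3.52 and 10.4 CPM in WT. Fibroblasts make several of these proteins, and of 18 fibroblast markers (feeder cells were left out only for the last passage) 15 had a row, with Postn, Lum and Fap having none. Thy1 was called higher, 0 were called lower, and K3R3 lay above both WT libraries for 8 of the 15 and below both for 2. The marker levels summed to 371 CPM in K3R3 and 448 and 368 CPM in WT, with a median log2 change of 0.21. Without Vim, the most abundant of them, they summed to 206 CPM in K3R3 and 202 and 180 CPM in WT, so that K3R3 stood above both. The part of these markers in the results was not tested.

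**Figure D5:**
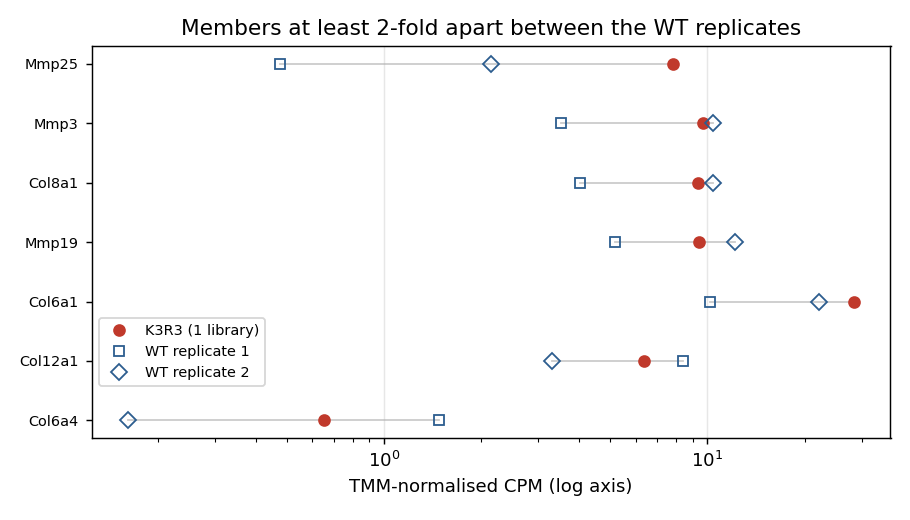
TMM-normalised CPM (log axis) of members at least 2-fold apart between the WT replicates, with K3R3 as a filled circle and the WT replicates as an open square and diamond. The K3R3 point lies between the WT points for 5 genes and above both for Mmp25 and Col6a1.

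Genes that work with these proteins changed in both directions. Of 113 listed partner genes 101 had a row and 95 were tested. Of these, 6 were called higher and 5 lower by edgeR, with a median log2 change of 0.00. Over all tested genes, 2.02% were called higher and 0.542% lower. Of 25 tested genes of collagen and elastic fibre assembly, 2 were higher and 0 lower (median 0.08). These were Tll1, a tolloid-like procollagen protease, at 6.99 CPM in K3R3 and 0.666 and 2.05 CPM in WT (log2 change 2.34), and Fbn2, a fibrillin of microfibrils, at 5.72 CPM in K3R3 and 1.62 and 1.41 CPM in WT (1.92).

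Of 21 other matrix glycoproteins and proteoglycans, 3 were higher and 0 lower (median 0.18). Npnt, which encodes nephronectin, a ligand of the alpha8 beta1 integrin, stood at 15.3 CPM in K3R3 and 6.66 and 5.64 CPM in WT (log2 change 1.32, SE 0.36; adjusted p = 0.0172 by edgeR). Acan, the large proteoglycan of cartilage, changed by 1.70, and Matn3, a matrilin of cartilage, by 1.55. Fn1, the main ligand of the alpha5 beta1 integrin, stood at 864 CPM in K3R3 and 1229 and 1197 CPM in WT (-0.49, not called). Of 4 integrins outside the symbol rule 0 were called in either direction (median 1.5), and 3 were higher at an unadjusted p under 0.05. Those 3 are chains known from leukocytes, with log2 changes of 1.85 for Itgal, 2.12 for Itgam and 1.15 for Itgae, and 1 of the 4 passed the filter on low counts only through K3R3. The median level of the 4 was 2.00 CPM. Of all genes, 347 of 2157 at 0.5 to 2 CPM and 459 of 3151 at 2 to 10 CPM were higher at this cut. Itgav, the alphav chain, stood at 66.7 CPM in K3R3 and 84.5 and 78.1 CPM in WT.

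Of 22 integrin adaptors and signalling genes, 1 was higher and 2 were lower (median -0.11). Fermt1, which encodes an integrin activator of the kindlin family, stood at 9.53 CPM in K3R3 and 3.81 and 1.45 CPM in WT (1.87). Parvb and Tns3, which link integrins to actin, fell by 0.74 and by 0.68. Of 17 protease regulators and other metalloproteases, 0 were higher and 1 was lower (median -0.01), A2m, a broad protease inhibitor, at 1.69 CPM in K3R3 and 10.5 and 4.95 CPM in WT (-2.19). Of the 6 basement membrane genes that the symbol rule left out and that were tested, 0 were higher and 2 lower (median -0.64), Col4a1 (-1.10) and Lama1 (-0.93). DESeq2 called 1 partner gene, Lama1, lower.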

How the data were processed

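The authors deposited whole-number read counts, for which the submitters' processing notes name HTSeq 0.5.4p1 and build mm9. Aligner, annotation and strand setting are not given in the sources used here. No count in the table is below 1, so genes at 0 in any of the libraries have no row. The authors also deposited RPKM, which divides each count by gene length and a library total. The deposited log2 fold (DESeq 1.10.1 is named in the submitters' processing notes) is headed as K3R3 against WT. By its values it is WT over K3R3, since in 100% of 1300 genes above 2-fold its sign was opposite to that of the counts, so directions here come from the counts. The promoter class and gene length were deposited by the authors as further columns.

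From the counts, edgeR 4.0.16 (R 4.3.3) was run with TMM factors, a minimum mean of 0.5 CPM over the 3 libraries and its quasi-likelihood test (two-sided), with p-values adjusted by Benjamini-Hochberg over all tested genes at 0.05. With 1 residual degree of freedom, p-values rest on the dispersion trend. SE is the size of the log2 change over the root of the F statistic. Differences of log2 CPM against 1 WT replicate use a prior count of 1. DESeq2 1.42.0 was an alternative, with other normalisations, filters and left-out WT replicates. The procedure was tested on simulated data. Named were members that were called or met the size rule, the 3 highest per family by RPKM, every thrombospondin and TIMP, the 4 symbol-only genes and called partner genes, except for 1 gene that is not reported here. Other members named were chosen after their values were seen. The members and lists, which include markers of fibroblast, ES, endoderm, endothelial, neural and mesoderm cells, were chosen with earlier results of these data known.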

Additional observations from a re-analysis of the deposited data

How the results depend on the processing

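The number of members called was 5 with DESeq2 size factors, without the filter on low counts and without the 4 symbol-only genes, 6 with the likelihood ratio test, 8 with library totals implied by RPKM, 3 at a minimum mean of 2 CPM and 0 with DESeq2. A bias-adjusted quasi-dispersion, chosen after seeing the data, gave 8. Calls of higher over all tested genes numbered 280 in the main setting, 336 with the likelihood ratio test and 465 with the implied totals. They numbered 220 at a minimum mean of 2 CPM, 370 with the bias-adjusted quasi-dispersion and 33 with DESeq2. The 5 calls were kept in every edgeR setting that tested them, and Col25a1 was not tested with the implied totals or at 2 CPM, nor Thbs4 at 2 CPM. The partner genes called were 11, and 9 to 13 under the other edgeR settings, against 1 with DESeq2. The member median of 0.48 was 0.62 with the implied totals, which moved the median of all genes by 0.12, 0.41 at a minimum of 2 CPM and 0.51 without the symbol-only genes. As plain differences of log2 CPM against 1 WT replicate, without a new fit, the member median was 0.59 to 0.62. The difference between bivalent and active members, 0.72, was 0.13 at a minimum of 2 CPM and 0.44 to 0.72 by such plain differences. The size rule counted 5 members, 20 at 1.5-fold, 0 at 3-fold, 9 with 0.5 CPM added, 3 at a minimum of 2 CPM and 12 to 15 without a WT replicate (the left-out counts, and the fibroblast sum without Vim, were chosen after seeing the data). Shares over all genes are given here for the main size rule only. No direction of a called member turned, and the causes were not tested. No paired analysis was possible because the K3R3 library has no replicate number. Counting error limits members near 1 CPM, where a few reads set the value.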
